A study of Rattus norvegicus with 4 samples.

Results

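The genes described here are those with which rat liver moves drugs, conjugates, sterols and carnitine across its membranes. They encode ATP-binding cassette (ABC) transporters of subfamilies A, B, C, D and G, organic anion transporting polypeptides (Slco), organic cation, anion and zwitterion transporters (Slc22) and multidrug and toxin extrusion proteins (Slc47). They were chosen by symbol alone, as every named gene whose symbol begins with Abca, Abcb, Abcc, Abcd or Abcg and a digit, with Slco and a digit, or with Slc22a or Slc47a, apart from 1 gene that was left out. This gave 77 of the 16999 named genes, and 43 of them, whose TPM averaged 1 or more over the libraries, are described. TPM is transcript abundance corrected for the length of the gene and the size of the library, so that levels of different genes may be compared on it. After 6 h of anesthesia with either agent, the genes of the P-glycoproteins and of the sterol exporter Abcg5 were called higher, and most of the abundant uptake transporters were not called.

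ABC transporters use ATP to push substrates out of a cell or into an organelle, whereas Slco and Slc22 proteins mostly let substrates into the cell. In a hepatocyte, the blood-facing (sinusoidal or basolateral) membrane takes up drugs, hormones and bilirubin, enzymes in the cell conjugate them, and pumps in the canalicular membrane export the products into bile. Other ABC proteins sit in mitochondria, peroxisomes and lysosomes, where they handle porphyrins, acyl-CoA esters and vitamins.

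The 4 libraries came from livers of wild type rats, 1 library for each group. Control rats inhaled sevoflurane (4.5%) or desflurane (6%) only until they lost consciousness (sevoflurane 0 h and desflurane 0 h), and anesthetized rats inhaled the same agent for 6 h (sevoflurane 6 h and desflurane 6 h). Both agents are halogenated ethers used for general anesthesia, and controls, too, had therefore inhaled an anesthetic. The sources used here do not give strain, sex or age of these animals, nor how many rats a library holds. Livers of control and anesthetized rats were taken 6 h apart, so in any comparison of 6 h with 0 h, how long anesthesia lasted and the time of day cannot be told apart. With 1 library a group there is no replicate error within any group, and each pairwise comparison sets 1 library against another.

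The depth, read from the ratio of coverage to FPKM, was lowest in sevoflurane 0 h (3.50 Gb of aligned bases) and lay between 5.29 and 5.57 Gb in the other libraries, which put a gene with a TPM of 2 at 4.72 reads per base on average in sevoflurane 0 h and at 6.84 to 7.28 in the others. The hepatocyte markers were abundant in every library, with a summed TPM of 90598 to 101118 for 7 genes, and 3 of 5 kidney markers were listed at 0 in all libraries, the others being below 0.03. Summed TPM ranged from 6.90 to 8.61 for 4 cholangiocyte markers, from 96.4 to 119 for 4 markers of sinusoidal endothelium, from 215 to 286 for 6 Kupffer cell markers and from 19.7 to 23.6 for 5 stellate cell markers. The 5 red blood cell markers moved with anesthesia, their summed TPM being 451, 1215, 727 and 1343 at 0 h and 6 h of sevoflurane and at 0 h and 6 h of desflurane, and their part in the results below was not tested. In whole tissue, fewer cells of a type and less RNA per cell cannot be told apart.

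Upstream sequences are shown for 4 loci with genes called higher after anesthesia, but not for Slc22a25, which was also called higher. They come from RefSeq and its assembly GRCr8, in which 35 of the 43 genes have an entry, whereas all gene positions given elsewhere are in rn6, the build of the deposited tables. Abcg5 and Abcg8 are transcribed away from each other, and the first sequence is the 205 bases between their annotated starts, chr6:15717731-15717935, on the + strand, along which Abcg5 is read. The others are the 250 bases before the annotated start of Abcb1a (chr4:26397649-26397898), Abcb1b (chr4:26280030-26280279) and Slc22a5 (chr10:38536073-38536322), all on the - strand and ending next to the start. Both strands were searched for the CCAAT box, spelled as its name, and for the GATA site, spelled GATAA. The GC box was spelled GGGCGG, and the E-box was searched as CACGTG. The core of the antioxidant response element was searched as TGACNNNGC, and a direct repeat to which nuclear receptors can bind as a pair of AGGTCA with 4 bases between them. Capitals mark the matches, none of which overlap each other in these stretches.
Abcg5 and Abcg8: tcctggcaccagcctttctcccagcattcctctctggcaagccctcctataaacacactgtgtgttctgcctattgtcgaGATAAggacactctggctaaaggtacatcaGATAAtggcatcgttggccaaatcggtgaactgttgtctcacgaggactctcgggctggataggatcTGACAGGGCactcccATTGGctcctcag
Abcb1a: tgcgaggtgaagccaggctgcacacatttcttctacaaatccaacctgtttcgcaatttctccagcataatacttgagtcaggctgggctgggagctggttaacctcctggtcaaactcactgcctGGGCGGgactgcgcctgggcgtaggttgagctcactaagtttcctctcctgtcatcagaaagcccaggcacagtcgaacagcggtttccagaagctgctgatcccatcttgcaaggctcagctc
Abcb1b: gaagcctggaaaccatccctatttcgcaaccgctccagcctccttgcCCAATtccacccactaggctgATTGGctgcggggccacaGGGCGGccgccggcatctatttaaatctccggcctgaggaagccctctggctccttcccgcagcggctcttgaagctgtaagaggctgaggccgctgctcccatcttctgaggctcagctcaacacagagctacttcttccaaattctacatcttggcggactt
Slc22a5: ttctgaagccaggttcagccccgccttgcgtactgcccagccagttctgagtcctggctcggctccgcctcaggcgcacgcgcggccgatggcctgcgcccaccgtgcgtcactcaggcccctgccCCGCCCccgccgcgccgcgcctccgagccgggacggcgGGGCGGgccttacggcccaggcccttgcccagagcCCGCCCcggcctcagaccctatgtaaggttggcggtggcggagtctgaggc

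The stretch shared by Abcg5 and Abcg8 held 2 GATA sites, 1 CCAAT box and 1 antioxidant response element core. A single GC box was found before Abcb1a, a GC box and 2 CCAAT boxes before Abcb1b, and 3 GC boxes before Slc22a5, where 74.4% of the bases were G or C. The median share of G and C in such stretches was 51.2% over all 33469 promoters in the reference. Over whole promoter windows of 300 bases, 37.5% of all entries held a CCAAT box, 26.5% a GATA site, 33.1% a GC box, 6.42% an E-box, 12.1% the antioxidant core and 0.00598% the direct repeat. The respective numbers among the 35 transporter entries were 13, 4, 24, 3, 6 and 0. A match describes the letters only and is not a binding site.

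Levels spanned a wide range. The 3 most abundant genes, Slco1b2, Slco1a2 and Abcc2, supplied between 44.1% and 47.9% of the summed TPM of the 77 genes in each library, and the 10 most abundant between 78.4% and 80.7%. A mean TPM of at least 100 was reached by 6 genes, and of at least 10 by 21 genes. The summed TPM of the whole group was 1621 in sevoflurane 0 h, 1899 in sevoflurane 6 h, 1699 in desflurane 0 h and 1681 in desflurane 6 h. Of the 34 genes below a mean TPM of 1, 9 were listed at 0 in all libraries. Just above that limit lay Slco5a1 with a mean of 1.01 and Abcc5 with 1.07, and just below it Abcd2 and Abcc8, both with 0.93.

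**Figure D1:**
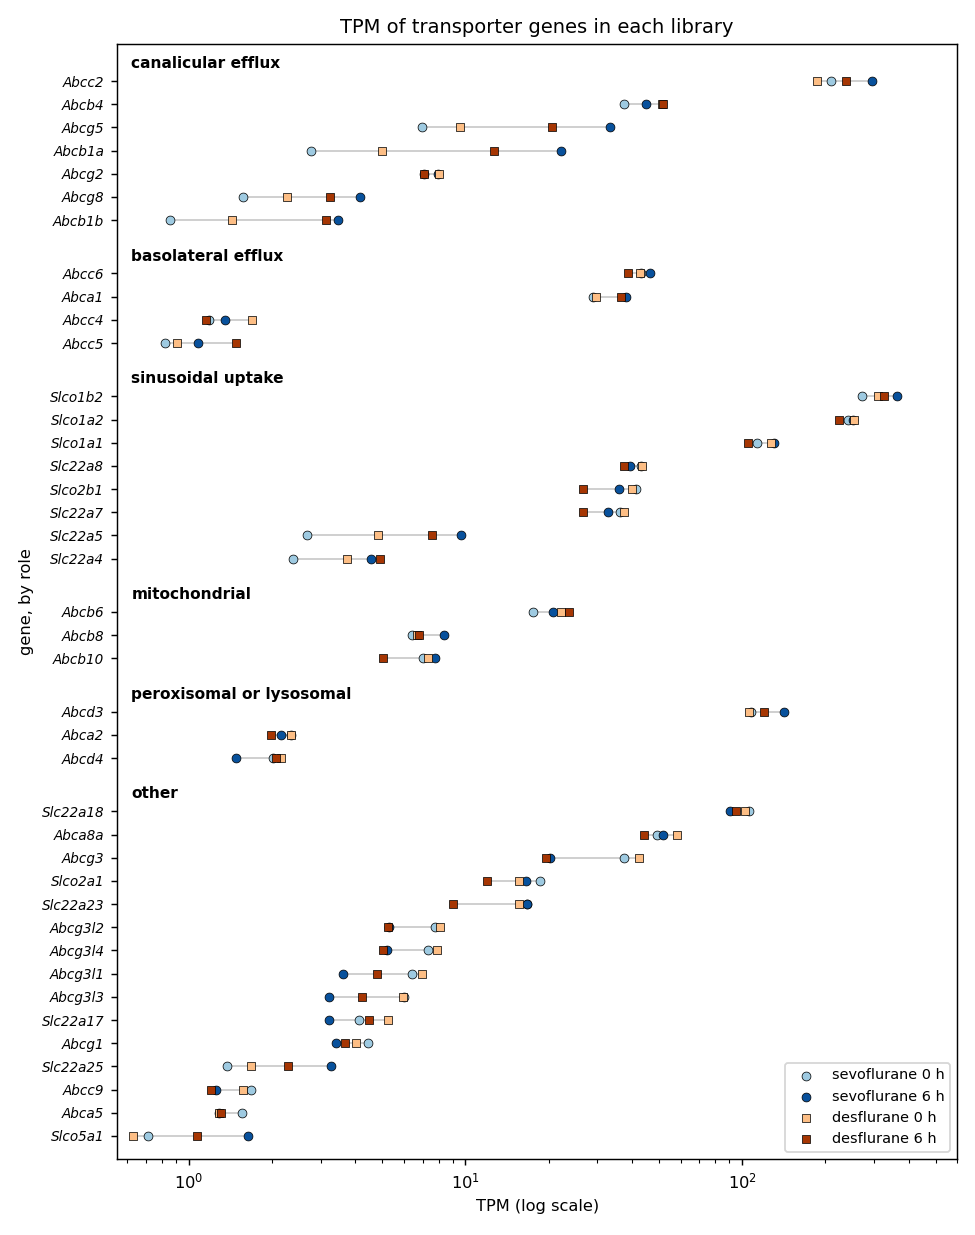
TPM (log axis) of described transporter genes in each of the 4 libraries, 1 point per library, grouped by role and sorted by mean level. For most genes the 4 points lie close together, and those of Abcb1a, Abcb1b, Abcg5, Abcg8 and Slc22a5 are spread out, with both dark 6 h points to the right of both pale 0 h points.

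To ask which of these genes differed after anesthesia, each 6 h library was set against its own agent's control. A gene was called higher or lower where the ratio of both TPM values was above 2 in that direction and at least 1 of them was above 2. With sevoflurane, 6 of the 38 transporter genes above that minimum were called higher and 0 lower, which is 15.8% and 0% of them, whereas among all 8270 genes above the minimum 5.04% were called higher and 3.71% lower. With desflurane, 3 of 38 were called higher (7.89%) and 1 lower (2.63%), against 4.1% and 5.55% of 8372 genes. After scaling by the median of ratios the desflurane counts over all genes turned from 343 higher and 465 lower to 424 and 360, those between the controls from 162 and 66 to 107 and 93, and of the transporter genes 3 were then higher and 0 lower with desflurane. Between the controls, 0 of 36 were called in either direction, where 1.96% of all genes were called higher and 0.799% lower in desflurane 0 h. Between the 6 h libraries, 0 of 38 were called, where 2.21% of all genes were called higher and 1.77% lower in desflurane 6 h. At a ratio of 1.5 in place of 2, 7 transporter genes were higher with sevoflurane (13.9% of all genes) and 4 lower (9.36%), and with desflurane 4 were higher (9.07%) and 6 lower (15.1%). Those lower included Abcg3, Abcg3l1 and Abcg3l3 with sevoflurane and Abcg3, Abcg3l2 and Abcg3l4 with desflurane, which are copies and not independent genes. At that ratio 3 (Abcb1a, Slc22a4 and Slc22a5) were higher in desflurane 0 h than in sevoflurane 0 h (7.82% of all genes) and 0 lower (2.74%), and 4 (Abcb10, Abcb1a, Abcg5 and Slc22a23) were lower after desflurane than after sevoflurane at 6 h (7.68%) and 0 higher (6.65%).

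The genes as a group shifted little. The median change of log2(TPM + 1) over the 43 genes was 0.11 with sevoflurane and -0.11 with desflurane, and over all 9201 genes above the same limit the medians were 0.05 and -0.10. Scaling by the median of ratios shifted the median of all genes with desflurane and between the controls to 0. The medians of the 43 genes were then 0.06 with sevoflurane and -0.01 with desflurane. A change of less than 0.5 on this scale was seen for 31 of the 43 genes with sevoflurane and for 33 with desflurane, that is 72.1% and 76.7%, compared with 78.1% and 77.0% of all genes. Both 6 h libraries lay above both controls for 16 of the 43 genes, where 22.8% of all genes did so, and below both controls for 13 genes, where 27.9% of all genes did so. The 13 include all genes of the Abcg3 cluster, copies that are not independent of each other. Slco5a1 and Abcc5 were described only because of their 6 h libraries, since both had a TPM below 1 in both controls. Abcb1b, Abcg8 and Slc22a25 likewise entered the sevoflurane count only through the 6 h library, as did Abcb1b the desflurane count, so a difference was a condition of their being counted.

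**Figure D2:**
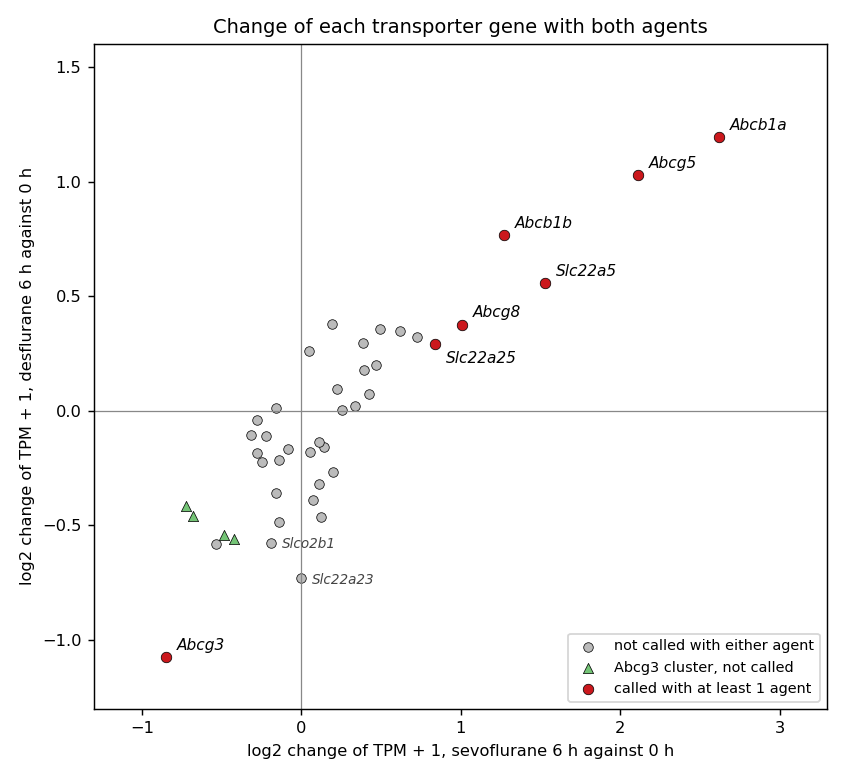
Change of log2(TPM + 1) of each of the 43 genes after 6 h of sevoflurane (horizontal axis) and of desflurane (vertical axis), each against its own control, with 1 pair of libraries per agent. Red points are the 7 genes called with at least 1 agent, and the green triangles are the other genes of the Abcg3 cluster, which lie below 0 on both axes.

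In a fit over all 4 libraries with limma, which estimated a change common to both agents with the agent as a term (2 libraries against 2, 1 residual degree of freedom), 4 of 37 transporter genes were higher and 1 was lower at an adjusted p under 0.05. Of all 8024 genes fitted, 4.69% were higher and 3.94% lower. The error in this fit comes from how far the change differed between the agents, and from 10.9 prior degrees of freedom drawn from all genes. It does not come from replicates. At an unadjusted p under 0.05, 7 transporter genes were higher (9.47% of all genes) and 7 lower (10.5%), the latter including Slco2b1 and the 5 genes of the Abcg3 cluster. Those 5 are copies with partly overlapping spans, among which reads were divided in an unknown way. They are thus not independent genes, and the count of 7 lower cannot be read against the share of all genes. The log2 changes of log2(TPM + 1) with their SE were 1.91 ± 0.30 for Abcb1a (adjusted p = 0.00128), 1.57 ± 0.24 for Abcg5 (adjusted p = 0.0013), 1.02 ± 0.25 for Abcb1b (adjusted p = 0.0241), 1.04 ± 0.26 for Slc22a5 (adjusted p = 0.0279) and -0.96 ± 0.17 for Abcg3 (adjusted p = 0.00277) in limma with Benjamini-Hochberg adjustment. Abcb1b, and Slc22a25 among the 7 higher at an unadjusted p, entered the fit only through their 6 h libraries. Their TPM was below 2 in both controls, so their p is no independent support. The same holds for Abcg8, also among the 7, whose controls (1.57 and 2.26) averaged a TPM below 2. Abcc2 came next, with 0.43 ± 0.12 and an adjusted p of 0.0533 in limma, and was not past the threshold. Slc22a5 was no longer past the threshold once the agent term was dropped (adjusted p = 0.0547 in limma) or at a minimum mean TPM of 5 or 0.5 (adjusted p = 0.0608 and 0.052). Each library was also left out in turn, in fits that had no agent term. In these, none of the 5 genes passed without sevoflurane 0 h, Abcg3 did not pass without desflurane 0 h either, Abcb1b passed in none of these fits, and Slc22a5 passed only without desflurane 0 h. Abcb1a and Abcg5 passed in the 3 fits that kept sevoflurane 0 h.

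The pumps of the canalicular membrane held most of the called genes. Of 7 described members, 4 were called higher with sevoflurane and 3 with desflurane, and the median log2 change was 1.01 and 0.38. Their summed TPM was 266 and 411 at 0 h and 6 h of sevoflurane, and 264 and 337 at 0 h and 6 h of desflurane. Most of this sum and of its rise was Abcc2, which was not called, at 209, 295, 186 and 238. Abcb1a and Abcb1b encode the P-glycoproteins of rodents, which expel many lipophilic drugs. The TPM of Abcb1a (chromosome 4, 22339829 to 22425381) was 2.76 in sevoflurane 0 h, 22.1 in sevoflurane 6 h, 4.99 in desflurane 0 h and 12.7 in desflurane 6 h. Both 6 h libraries lay above both controls, and the ratio was 7.99 with sevoflurane and 2.55 with desflurane. The controls themselves differed 1.81-fold in this gene, and with the controls exchanged the ratios became 4.42 for sevoflurane and 4.60 for desflurane. At 6 h the level with sevoflurane was 1.74-fold that with desflurane. Its neighbor Abcb1b (chromosome 4, 22225461 to 22307453) was less abundant, with a TPM of 0.85, 3.47, 1.43 and 3.14 in the same order and ratios of 4.07 and 2.19. The coverage of Abcb1b was only 2.01 in sevoflurane 0 h and 4.94 in desflurane 0 h, against 11.9 and 11.4 in the 6 h libraries. The P-glycoprotein genes are close copies of each other, and how reads common to both were divided is not known, so their sum is the firmer value. It was 3.61, 25.5, 6.42 and 15.8, and rose 7.07-fold with sevoflurane and 2.47-fold with desflurane. With the controls exchanged, the ratios of the sum were 3.98 for sevoflurane and 4.38 for desflurane, and those of Abcb1b 2.43 and 3.68, so that the order of the agents depended on the control.

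Abcg5 and Abcg8 encode half-transporters that pair to secrete cholesterol and plant sterols into bile, and their genes face away from each other with 205 bases between them in rn6 as well. The TPM of Abcg5 (chromosome 6, 7935771 to 7961207) was 6.97, 33.4, 9.58 and 20.6 at 0 h and 6 h of sevoflurane and at 0 h and 6 h of desflurane. The 6 h libraries were again the higher ones with both agents, with ratios of 4.79 and 2.15. A locus assembled from the same reads, on the strand of Abcg5, gave ratios of 4.96 and 2.33 and is no independent support. Abcg8 (chromosome 6, 7961413 to 7980708) stood at 1.57, 4.17, 2.26 and 3.23, and was called with sevoflurane, with a ratio of 2.66, but not with desflurane, with a ratio of 1.43. In the fit over both agents its change was 0.69 ± 0.26 (SE), with an adjusted p of 0.14 in limma. Whether the agents differed in Abcg8 was not tested. The TPM of Abcg5 exceeded that of Abcg8 4.45-fold and 4.24-fold in the controls and 8.01-fold and 6.38-fold in sevoflurane 6 h and desflurane 6 h, so that the partners did not keep a constant ratio.

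**Figure D3:**
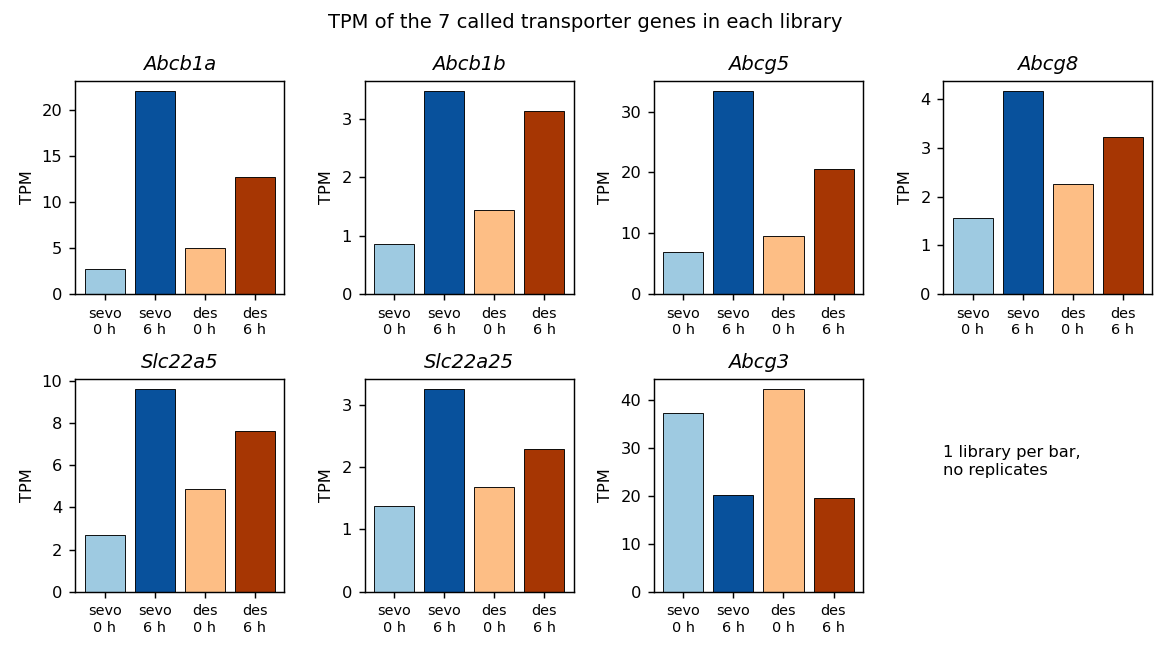
TPM of the 7 called genes in each library, 1 bar per library without replicates, with axes that start at 0. In 6 panels both 6 h bars stand above both 0 h bars, and in the panel of Abcg3 both stand below.

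The other canalicular pumps were not called. Abcc2, which exports glucuronides of bilirubin and of drugs, was the most abundant of them, with a TPM of 209 in sevoflurane 0 h, 295 in sevoflurane 6 h, 186 in desflurane 0 h and 238 in desflurane 6 h. Both 6 h libraries lay above both controls, with ratios of 1.41 and 1.28. Abcb4, the neighbor of Abcb1b on chromosome 4 and the exporter of phosphatidylcholine into bile, had a TPM of 37.5, 44.9, 51.5 and 51.6 in the same order, and its 6 h and 0 h libraries overlapped. Abcb4 was 13.6-fold as abundant as Abcb1a in sevoflurane 0 h but 2.03-fold in sevoflurane 6 h. Abcg2, the exporter of sulfate conjugates and urate, was even across the libraries, at 7.10, 7.95, 8.02 and 7.07. Slc47a1, the proton exchanger for organic cations of the same membrane, was listed at 0 in 3 libraries and at 0.02 in desflurane 0 h.

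Transporters that return substrates to the blood showed no call with either agent, and 4 of 6 were described. Abcc1, Abcc3, Abcc4 and Abcc5 had no TPM above 2 and so could not be called, which left only Abca1 and Abcc6. Abca1, which loads cholesterol onto apolipoprotein A-I, had a TPM of 28.8, 38.0, 29.5 and 36.4 at 0 h and 6 h of sevoflurane and at 0 h and 6 h of desflurane, so that both 6 h libraries were above both controls by a ratio of 1.32 and 1.23 within agents. Abcc6, which supports ATP release from hepatocytes, stood at 42.97, 46.6, 42.6 and 38.7 with overlapping groups. Abcc4 and Abcc5, exporters of cyclic nucleotides and conjugates, ranged from 0.82 to 1.69. Abcc3, the basolateral exporter of glucuronides, was below the limit for description, at 0.79, 0.50, 0.81 and 0.76 in the same order, and Abcc1 was between 0.66 and 0.89.

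Uptake transporters of the sinusoidal membrane made up the largest part of the expression, with a summed TPM of 847, 967, 914 and 871 over 9 described genes, and 1 was called. That gene was Slc22a5 (chromosome 10, 39201101 to 39228090), which encodes the carnitine transporter. Its TPM was 2.68 in sevoflurane 0 h, 9.62 in sevoflurane 6 h, 4.85 in desflurane 0 h and 7.60 in desflurane 6 h. Both 6 h values were above both 0 h values, and the ratio of 3.59 with sevoflurane was past the rule while that of 1.57 with desflurane was not. The controls differed 1.81-fold, and with the controls exchanged the ratios were 1.98 and 2.83. Slc22a4, the transporter of ergothioneine, which lies 102642 bases from Slc22a5 on the same strand, stood at 2.37, 4.57, 3.72 and 4.90, with ratios of 1.93 and 1.32 that were not past the rule.

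The abundant members of the Slco family, which take up bilirubin, thyroid hormones and many drugs, were not called. The TPM of Slco1b2 was 270.5 in sevoflurane 0 h, 364 in sevoflurane 6 h, 309 in desflurane 0 h and 325 in desflurane 6 h, and both 6 h values exceeded both controls by ratios of 1.34 and 1.05. Slco1a2 (chromosome 4, 175969549 to 176026163) had 242, 252, 254 and 224 with overlapping groups. The reference table lists Slco1a2 as an older symbol of both Slco1a4 and Slco1a5. The deposited tables hold a row of their own for Slco1a5, with values of at most 0.10, and none for Slco1a4. The values of Slco1a2 may thus be those of Slco1a4, but the symbol is kept as deposited. Slco1a1 was at 113, 130.2, 127 and 105. Slco2b1 stood at 41.2, 36.0, 40.0 and 26.5, and both 6 h libraries were below both controls, with ratios of 0.87 and 0.66.

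The remaining uptake genes of the Slc22 family were not called. Slc22a7, an organic anion transporter, was at a TPM of 36.1, 32.7, 37.5 and 26.5 at 0 h and 6 h of sevoflurane and at 0 h and 6 h of desflurane, and Slc22a8, also an organic anion transporter, at 43.2, 39.2, 43.6 and 37.4. For both anion transporters the 6 h libraries were below the controls, by ratios between 0.71 and 0.91.

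**Figure D4:**
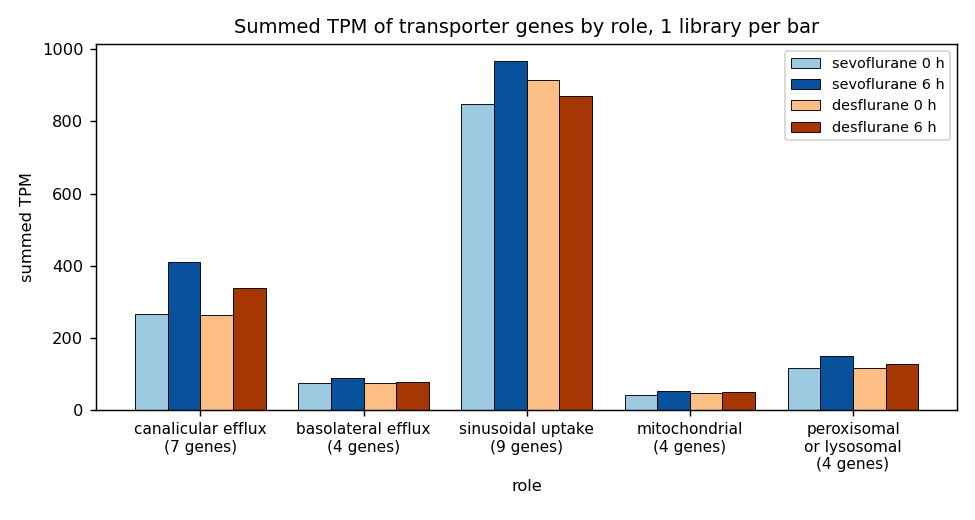
Summed TPM of the described genes by role in each library, 1 bar per library, with an axis that starts at 0. The canalicular pumps are higher in both 6 h libraries than in both 0 h libraries (411 and 337 against 266 and 264), while the bars of the uptake transporters lie between 847 and 967. Most of each canalicular bar is Abcc2, which was not called.

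The ABC proteins of mitochondria, which serve heme formation among other tasks, were not called. Abcb6, a porphyrin transporter, stood at 17.5, 20.7, 22.1 and 23.7 at 0 h and 6 h of sevoflurane and at 0 h and 6 h of desflurane. Abcb8 ranged from 6.43 to 8.38, with both 6 h libraries above the controls, though by a ratio of only 1.02 with desflurane. A locus assembled from the same reads gave ratios of 1.77 with sevoflurane and 0.984 with desflurane, so the direction with desflurane is uncertain. Abcb10, which takes part in heme synthesis, ranged from 5.05 to 7.73. In Abcb10, desflurane 6 h had the lowest value of the 4 libraries.

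Among genes of peroxisomes and lysosomes, Abcd3, a carrier of branched-chain acyl-CoA and bile acid precursors, was by far the most abundant. Its TPM was 107, 141, 106 and 120.4 in the same order as above, with both 6 h libraries above both controls and ratios of 1.32 and 1.13. Abcd2, a peroxisomal carrier of acyl-CoA, lay below the limit for description, but its TPM of 0.26 and 0.37 in the controls stood beside 1.82 and 1.27 in sevoflurane 6 h and desflurane 6 h. Since no value of Abcd2 exceeded a TPM of 2, it could not be called. Abcd4, which serves cobalamin export from lysosomes, was at 2.02, 1.49, 2.15 and 2.06, and Abca2, a lysosomal lipid transporter, between 1.98 and 2.35. Abcb9, a lysosomal peptide transporter, had 1.32, 0.19, 0.78 and 0.11 and was likewise below the minimum.

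The Abcg3 cluster held the 1 gene called lower. Abcg3 is a rodent relative of Abcg2, and it lies on chromosome 14 (5971984 to 6103054) among Abcg3l1, Abcg3l2, Abcg3l3 and Abcg3l4, whose annotated spans overlap in part. The TPM of Abcg3 was 37.4 in sevoflurane 0 h, 20.3 in sevoflurane 6 h, 42.3 in desflurane 0 h and 19.6 in desflurane 6 h. Both 6 h libraries were below both controls, with a ratio of 0.54 with sevoflurane, which was not past the rule, and of 0.46 with desflurane, which was. After scaling by the median of ratios the desflurane ratio was 0.501, no longer past the rule. The other 4 genes of the cluster ranged from 5.96 to 8.08 in the controls and from 3.22 to 5.29 in the 6 h libraries, and in each of them both 6 h libraries were below both controls, with adjusted p between 0.181 and 0.242 in limma. How reads were divided among these copies is not known. Their summed TPM was 64.9, 37.6, 71.2 and 38.8, which is 1.72-fold and 1.83-fold lower after anesthesia, so that the sum was not past the rule with either agent.

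Of the other genes, 1 was called. Slc22a25 (chromosome 1, 224596886 to 224698512), an Slc22 member, was called higher with sevoflurane. Its TPM was 1.38, 3.26, 1.69 and 2.29 at 0 h and 6 h of sevoflurane and at 0 h and 6 h of desflurane, with ratios of 2.36 and 1.36, and both 6 h libraries were above the controls. Slc22a23, whose substrate is not known, had 16.7, 16.7, 15.6 and 8.99, so that only desflurane 6 h was low. Slc22a18, an imprinted gene, had 106, 90.8, 103 and 95.3, with both 6 h libraries below both controls by ratios of 0.855 and 0.927. Abca8a stood at 49.4, 51.9, 58.0 and 44.0, and Slco2a1, the prostaglandin transporter, at 18.5, 16.5, 15.6 and 12.0, and for both the groups overlapped. Slc22a17, which binds lipocalin, ranged from 3.22 to 5.24, Abca5 from 1.29 to 1.55, and Abcc9, a subunit of potassium channels, from 1.20 to 1.67. Abcg1, which moves cholesterol to high-density lipoprotein, was at 4.45, 3.39, 4.02 and 3.67, and Slco5a1 at 0.71, 1.64, 0.63 and 1.07. Abca5, Abcc9 and Slco5a1 had no TPM above 2 and so could not be called.

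Regulators of these transporters were counted as a list of 16 genes, all of which were described. Sevoflurane gave 3 calls higher and 1 lower among them, desflurane 2 higher and 2 lower, where 5.04% and 3.71% of all genes were called with sevoflurane and 4.1% and 5.55% with desflurane. The list medians were 0.02 and -0.29 on the log2 scale. Nr1i2, the pregnane X receptor that senses drugs, stood at a TPM of 26.0, 99.7, 34.1 and 90.9 at 0 h and 6 h of sevoflurane and at 0 h and 6 h of desflurane and rose with both agents. Ppara, the receptor for fatty acids, rose with both as well, at 9.70, 32.1, 12.7 and 43.6. Ahr, the receptor for aromatic compounds, rose with sevoflurane, at 8.92, 29.2, 20.6 and 37.9, and its controls differed 2.31-fold. Nfe2l2, the regulator of the antioxidant response, fell with both, at 78.6, 31.2, 62.6 and 23.0, and Foxa2, a factor of hepatocyte identity, fell with desflurane to 0.354 of its control. Nr1h3, a receptor for oxysterols, was not called, at 101, 66.2, 104 and 64.3, nor was Nr1i3, the constitutive androstane receptor, at 25.8, 26.3, 44.0 and 29.6.

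Partners of the transporters, among them membrane scaffolds and the uptake carrier Slc10a1, gave 0 genes higher and 1 lower (Tap1) of 14 with sevoflurane and 0 in either direction with desflurane. Of 16 conjugating enzymes, which make many of the substrates that the pumps export, 0 were called with sevoflurane and 1 was called higher with desflurane. For lists of this size, such counts are near the shares of all genes called. That gene was Gsta3, at a TPM of 1.23, 0.75, 2.87 and 6.16 at 0 h and 6 h of sevoflurane and at 0 h and 6 h of desflurane, which shares sequence with other glutathione transferase genes and is uncertain for that reason. Gsta3 was also called between the controls and between the 6 h libraries. Ugt1a1, which conjugates bilirubin, was at 217, 362, 254 and 397 and was not called.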

How the data were processed

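RNA from rat liver was sequenced in 4 libraries, 1 a group, which were assigned to groups by their labels. Per the labels, an RNeasy Midi kit served to purify the RNA and a TruSeq Stranded Total RNA Gold kit to make libraries, and the submitters' processing notes name HISAT2, SAMtools, StringTie and rn6. No source used here gives tool versions or the annotation. For each library the authors deposited coverage, FPKM and TPM by gene. The deposited TPM column was handled as a score, because it lists named genes beside loci assembled from the same reads and so sums to more than the TPM total of a library. FPKM as deposited by the authors is proportional to TPM within a library, whereas coverage, also as deposited, gives reads per base without scaling for library size. Coverage over FPKM was constant within 1% for 97.1% to 97.4% of named rows above an FPKM of 0.5 and gave the aligned bases. Counting intervals need read counts and are not given.

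Named rows spanning over 200 bp were kept and rows of a symbol summed. Pairwise comparisons used the rule of size, with no p-value. The change common to both agents was fitted with limma 3.58.1 in R 4.3.3 on log2(TPM + 1), which understates changes of low genes, for genes averaging a TPM of 2 or more, with eBayes and a trend, two-sided, and p-values adjusted by Benjamini-Hochberg. Both steps were run on simulated data with equal noise for all genes and the same change with both agents. That does not show how they perform on these data. Values in all libraries are given for genes called in any pairwise comparison, those whose mean TPM was 10 or more and a fixed set of transporters, apart from 3 described genes that are counted but not reported by name here. The members and lists were chosen with earlier results of these data known. The alternatives were a TPM minimum of 1 or 5, a ratio of 1.5 or 3, scaling by the median of ratios or without Rn7sl1, the highest row of a symbol, the other agent's control, other pseudocounts and minima, and, added after the data were seen, assembled loci in place of named rows. The reference gene table (GRCr8) held 76 of the 77 symbols.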

Additional observations from a re-analysis of the deposited data

Results flagged for a closer look

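The tables also list loci assembled from the reads, and some of them lay inside a described gene without being on its strand. In 4 genes their summed TPM at 6 h was above 2 and more than 2 times that of the control, and smaller rises are not listed. Inside Abcc2, a locus on the opposite strand had a TPM of 4.55 in desflurane 6 h and of 2.16 in desflurane 0 h, and it was present in both sevoflurane libraries as well, at 3.11 and 3.40. Inside Abcc5, 2 loci without a strand had a summed TPM of 3.60 in sevoflurane 6 h, and none was assembled in the other libraries. Inside Abcc9, a locus without a strand had 2.18 in sevoflurane 6 h, and inside Abcg3l1 a locus without a strand had 2.10 in desflurane 6 h, with none in the other libraries. Falls were outside this rule. The largest values lay in the Abcg3 cluster, where annotated spans of both strands overlap, and were lower at 6 h. In the order used above they were 47.1, 23.7, 46.7 and 0 inside Abcg3. Only loci wholly within the span of a gene were counted, so a 0 can also stand for a locus that reached past it. Inside both Abcg3l2 and Abcg3l4 they were 162, 86.9, 160 and 93.8. Inside Slco1a2, Slco2b1 and Slc22a25 they were 4.70, 3.90 and 2.06 in sevoflurane 0 h and 0 in sevoflurane 6 h. No gene called with either agent moved in the opposite direction with the other agent.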

How the results depend on the processing

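Genes called higher with sevoflurane numbered 3 in place of 6 with a TPM above 5 (Abcb1a, Abcg5 and Slc22a5) and 3 with the control of the other agent (Abcb1a, Abcb1b and Abcg5). Genes called lower with sevoflurane numbered 1 in place of 0 with a TPM above 1 or after rescaling without Rn7sl1 (Abcb9), 1 with the other control (Abcg3) and 4 with a ratio above 1.5. Rescaling without Rn7sl1 raised the TPM of all other named genes, so that it, too, lowered the minimum in effect. With desflurane, genes called higher numbered 0 in place of 3 with a ratio above 3, and 6 with the other control, where Abcg8, Slc22a4 and Slc22a5 were added. Genes called lower with desflurane numbered 6 in place of 1 with a ratio above 1.5, and 0 with a ratio above 3, after scaling by the median of ratios or with the other control, so the call of Abcg3 rested on its scaling and control. A ratio above 1.5 gave 3 genes higher in desflurane 0 h and 4 lower in desflurane 6 h, in place of 0. The median change with sevoflurane moved from 0.11 to 0 with no minimum and to -0.0024 with the other control. That with desflurane moved from -0.11 to 0 with no minimum, to -0.012 after median-of-ratios scaling and to -0.017 with the other control. Between the controls it moved from 0.06 to -0.058 after that scaling. The same scaling moved the median of all genes from 0.11 to 0 between the controls and from -0.10 to 0 with desflurane.

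In limma, the number of genes higher was 2 in place of 4 at a mean TPM of at least 5, and the number lower 2 in place of 1 at a mean TPM of at least 0.5. With each library left out in turn it ranged from 0 to 3 for genes higher and from 0 to 1 for genes lower, and the lone library of an arm is then assumed to vary like the others. Over all alternatives the adjusted p in limma ranged from 0.0018 to 0.0747 for Abcb1a, from 0.0016 to 0.0862 for Abcg5, from 0.0314 to 0.254 for Abcb1b, from 0.0369 to 0.283 for Slc22a5 and from 0.00481 to 0.074 for Abcg3, and no change of these 5 genes reversed. Of 190 ratios of named genes under an alternative, 182 kept their side of the rule, 5 lost a call and 3 gained one. Most of the 190 belong to genes that were never called. With the control of the other agent, Abcg8, Slc22a5 and Slc22a25 lost their call with sevoflurane and Abcg3 lost its call with desflurane. All 3 gains came from that exchange as well. Among the 190 are those for the highest row of a symbol, which could not differ, since each of these genes has 1 row. Ratios of assembled loci, also among them, come from the same reads, so the 182 overstates how stable the calls are. The causes were not tested. The agent term of limma pairs 6 h with 0 h within each agent. A pairing by replicate number could not be made, because each group has 1 library and the labels give no such numbers. Depth limits the genes below a TPM of 2, and was lowest in sevoflurane 0 h.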
